A study of Rattus norvegicus with 9 samples.

Results

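The mitochondrial SLC25 carriers are a family of transport proteins that sit mostly in the inner membrane of the mitochondrion and exchange nucleotides, phosphate, carboxylic acids, amino acids and cofactors between the matrix and the cytosol. They were taken here as every gene of the deposited table whose symbol is Slc25a followed by a number, with Slc25a20 left out by the selection rule, which gave 47 of 18964 genes. Of these, 40 passed the filter on low counts and were tested, and 7 did not. Poly(A) RNA was measured by sequencing in the gastric lymphatic vessel of wild-type male Sprague-Dawley rats weighing 180 to 220 g. The BXD group was fasted for 12 h, kept for 4 h in a pool filled to 15 cm with water of 22 ± 2 °C, and 30 min later given Banxia Xiexin decoction, a Chinese herbal preparation, by gavage at 10 ml per kg. The model group had the same fast and the same water stress, followed by a gavage of vehicle, which is saline in one label and distilled water in another. The control group was fasted for 12 h, had no water stress, and received the same volume of distilled water. Each group had 6 rats and 3 libraries, and the labels do not tie libraries to individual rats or say whether RNA was pooled, so p-values measure the spread between libraries.

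Adenine nucleotide translocases export the ATP made in the matrix in exchange for ADP, and the phosphate carrier brings in the phosphate needed to make it. Other members feed the citric acid cycle and the shuttles that move reducing equivalents, deliver folate, coenzyme A, NAD and nucleotides for mitochondrial enzymes and DNA, or carry iron and glutathione for iron-sulfur cluster and heme synthesis. The uncoupling proteins Ucp1, Ucp2 and Ucp3 belong to the same protein family under other symbols and were not members here. The carriers are made in the cytosol and brought to the inner membrane by the TOM and TIM translocases.

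Per unit of gene length, 3 members made up most of the family's message. On the FPKM scale, a level scaled for gene length and sequencing depth, the mean of the 9 libraries was 425 for Slc25a5, 423 for Slc25a3 and 310 for Slc25a4, followed by 108 for Slc25a39 and 86.1 for Slc25a1. Slc25a5 and Slc25a4 are adenine nucleotide translocases, of which Slc25a4 is the form typical of heart and skeletal muscle, and Slc25a3 is the phosphate carrier. Slc25a3 averaged 449 FPKM in BXD, 475 in model and 345 in control libraries. Slc25a5 averaged 406 FPKM in BXD, 561 in model and 307 in control libraries, and Slc25a4 averaged 405, 295 and 228 FPKM in the same groups. By these means Slc25a5 was the first of the 3 in model, and Slc25a3 in BXD and in control. Within BXD the first gene differed by library. It was Slc25a4 in replicate 1 (474 FPKM), Slc25a5 in replicate 2 (416 FPKM) and Slc25a3 in replicate 3 (534 FPKM). The 3 genes together held 64.2% ± 2.94 of the family's summed FPKM in BXD, 60.1% ± 1.42 in model and 54.7% ± 1.91 in control libraries (SD, n = 3 each). A further 20 members lay between 10 and 100 FPKM, 14 between 1 and 10, and 9 under 1.

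**Figure D1:**
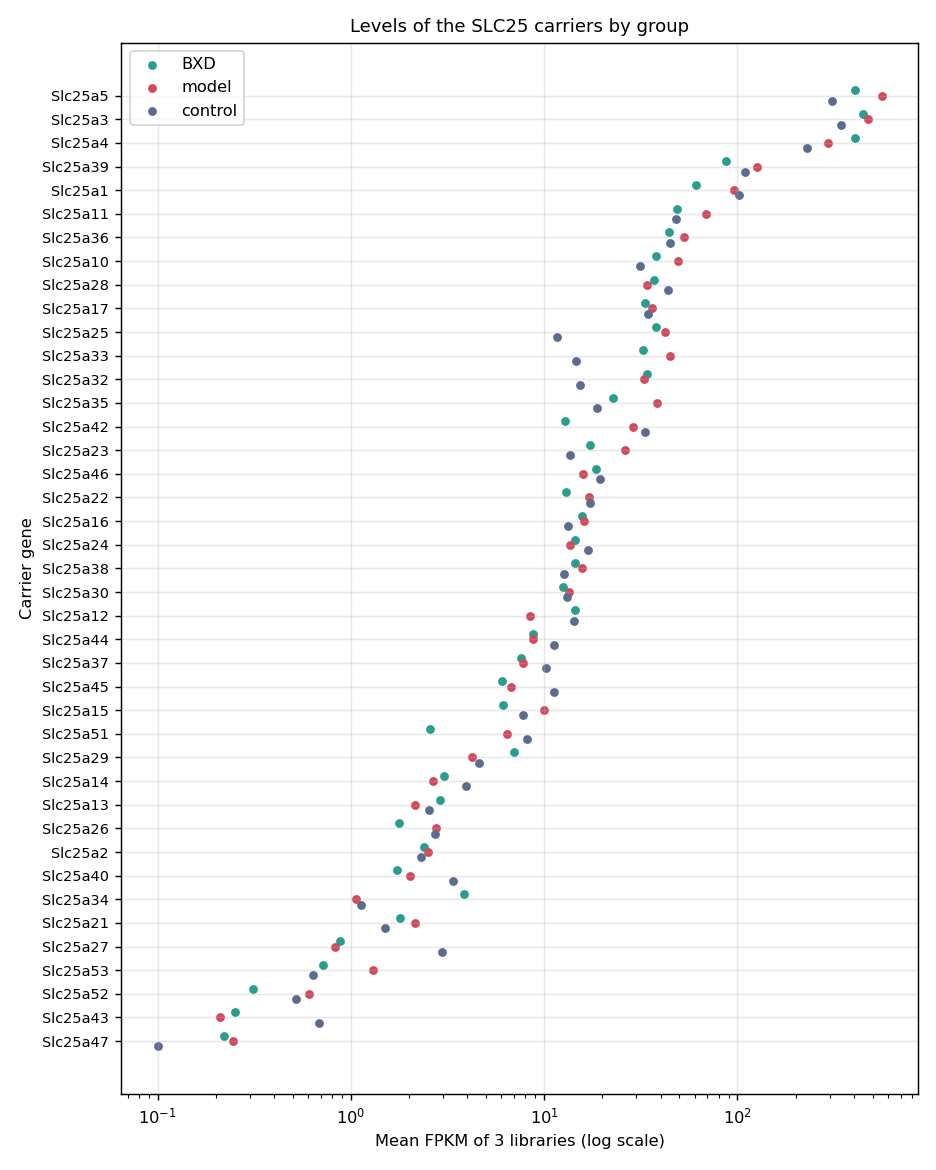
Level of the SLC25 carriers in gastric lymphatic vessel, as mean FPKM of each group of 3 libraries on a log axis, for 41 members with a mean of at least 0.1 FPKM. Slc25a5, Slc25a3 and Slc25a4 stand above 300 FPKM on the mean of the 9 libraries, and the next gene, Slc25a39, is at 108 FPKM.

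The 7 untested members were near the limit of detection. They had 37 (Slc25a53), 28 (Slc25a47), 10 (Slc25a18), 4 (Slc25a48), 3 (Slc25a54), 2 (Slc25a31) and 1 (Slc25a41) estimated counts over all 9 libraries. Slc25a31 encodes the adenine nucleotide translocase of sperm and Slc25a47 is known mainly from liver. At a depth of 12313813 to 13455705 estimated counts per library, 3 counts correspond to 0.195 to 0.269 CPM (counts relative to library size, scaled for composition), a limit that covers counting error only. Slc25a47 was at 0.250 to 0.314 CPM in BXD, 0.263 to 0.448 CPM in model and 0.0710 to 0.140 CPM in control libraries, which rest on 11, 12 and 5 counts in these groups.

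The libraries carried messages of several cell types besides lymphatic endothelium. The 6 markers of lymphatic endothelium (Lyve1, Prox1, Pdpn, Flt4, Ccl21 and Reln) were present in every library, with summed levels of 593 to 753 CPM in BXD, 425 to 696 CPM in model and 440 to 473 CPM in control libraries. Of the 6, Lyve1 and Prox1 were called between model and control, 1 higher and 1 lower in model, and Lyve1 was higher in BXD than in control. The 9 adipocyte markers summed to 9652 to 12637 CPM in BXD, 12365 to 20556 CPM in model and 5380 to 5720 CPM in control libraries, and 9 of 9 were higher in model than in control and 7 of 9 higher in BXD than in control. The 5 brown adipocyte markers, which include Ucp1, summed to 819 to 1456 CPM in BXD, 2517 to 6782 CPM in model and 440 to 1110 CPM in control libraries. The 4 of them that were tested were higher in model than in control, and 1 of the 4, Ppargc1a, was higher in BXD than in control. The 7 smooth muscle markers summed to 5399 to 8300 CPM in BXD, 1809 to 3272 CPM in model and 3891 to 5966 CPM in control libraries. Of these, 4 of 7 were lower in model than in control, and 1 of 7, Des, was higher in BXD than in control. The 10 striated muscle markers summed to 7503, 65.2 and 4067 CPM in BXD replicates 1 to 3, to 35.3, 441 and 21.1 CPM in model replicates 1 to 3, and to 30.8 to 38.3 CPM in control libraries. BXD replicates 1 and 3 and model replicate 2 thus stood apart in striated muscle message. The 5 macrophage markers summed to 304 to 361 CPM in BXD, 422 to 438 CPM in model and 298 to 347 CPM in control libraries, and 2 of 5 (Cd68 and Mrc1) were higher in model than in control. The 5 erythroid markers in the table summed to 4823 to 6653 CPM in BXD, 10233 to 15566 CPM in model and 5261 to 11305 CPM in control libraries, and 1 of 5, Hba-a1, was lower in BXD than in control. The 6 blood endothelium markers summed to 1007 to 1238 CPM in BXD, 916 to 1181 CPM in model and 1171 to 1232 CPM in control libraries, and 2 of 6, Erg and Aplnr, were lower in model and in BXD than in control. The 6 lymphocyte markers summed to 11.2 to 37.3 CPM in BXD, 14.0 to 106 CPM in model and 15.1 to 25.4 CPM in control libraries. The gastric mucosa markers summed to at most 3.27 CPM in any library. The part of these messages in the differences below was not tested, and in bulk tissue fewer cells of a type and less RNA per cell cannot be told apart.

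**Figure D2:**
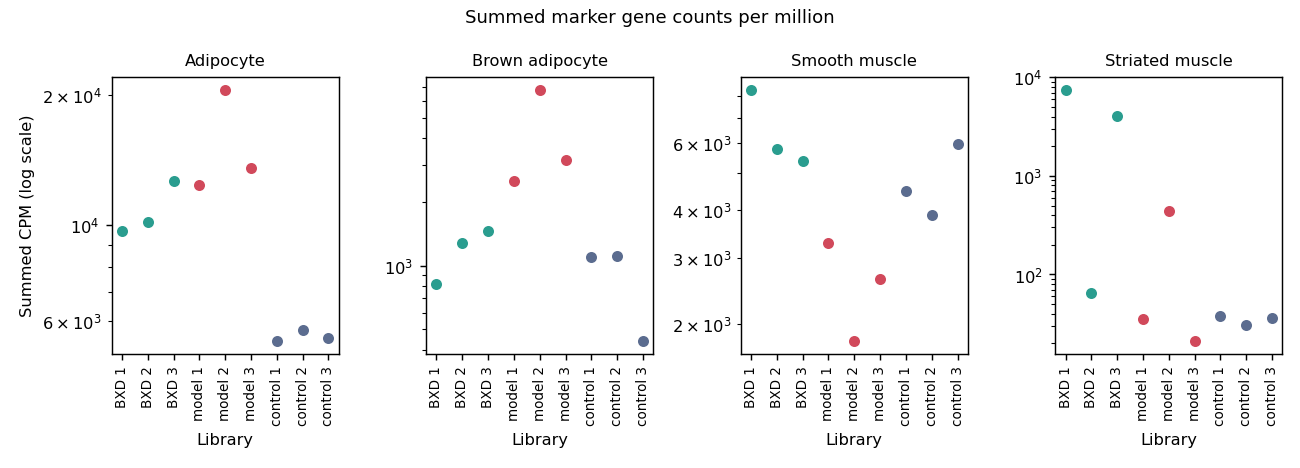
Summed level of adipocyte, brown adipocyte, smooth muscle and striated muscle markers in each library, in CPM on a log axis, with BXD, model and control libraries from left to right. The adipocyte sum of each model library lies above that of each control library, and the striated muscle sum reaches 7503 and 4067 CPM in BXD replicates 1 and 3.

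Water stress was accompanied by higher levels of many carriers. Against control, 16 of the 40 tested members rose in model libraries, which is 40.0% of them beside 21.6% of all 14643 genes tested, and 3 fell, which is 7.5% beside 20.6% (edgeR quasi-likelihood test, Benjamini-Hochberg adjusted p under 0.05, as for every call below). Together they were 47.5% of the members, beside 42.2% of all genes. The remaining 21 did not pass the test. The median log2 fold change of the 40 was 0.31, against -0.01 over all tested genes, and 28 estimates were positive and 12 negative. Of the called members, 6 rose and 2 fell by at least 2-fold, and 11 changed by less. The counts depend on single libraries. The number of rises was 9 without control replicate 2 and 9 without control replicate 3, when 14.4% and 14.7% of all genes were called higher. The number of falls was 1 without control replicate 2, control replicate 3, model replicate 2 or model replicate 3. In these fits 14.8%, 14.9%, 14.1% and 15.9% of all genes were called lower. Scaling by library size alone, which put the median of all genes at -0.28, gave 9 rises and 5 falls among the members, beside 11.1% and 33.5% of all genes, and rises were then 24.8% of all calls, against 51.2% with composition scaling. Without the 3 libraries that carried striated muscle message, 14 members rose and 3 fell, beside 19.4% and 18.6% of all genes. The 3 that fell were Slc25a12, Slc25a27 and Slc25a45.

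**Figure D3:**
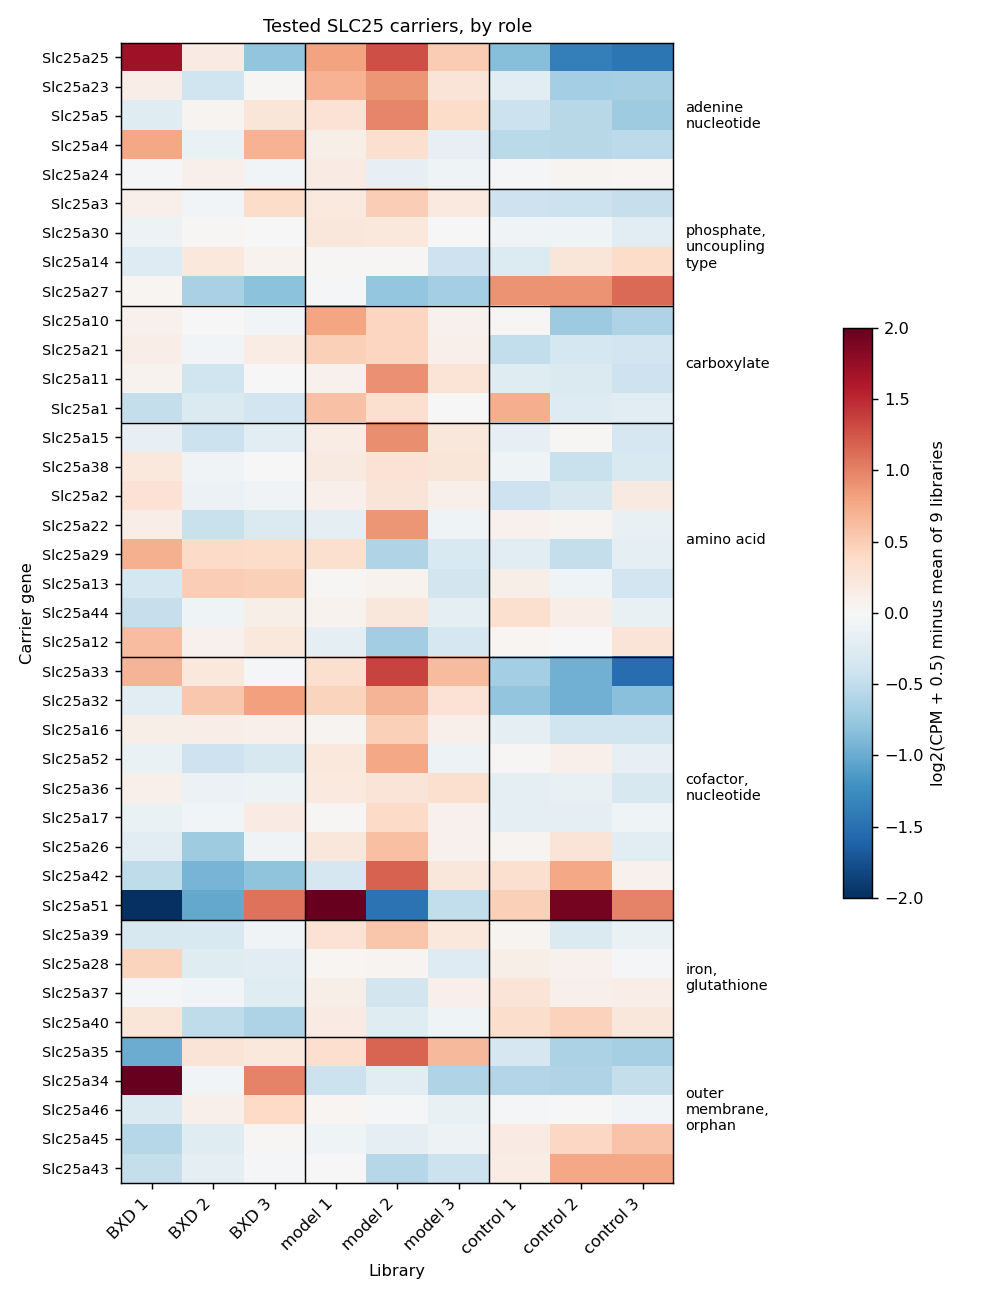
Heat map of 39 of the 40 tested carriers, ordered by role, showing log2(CPM + 0.5) minus the mean of the 9 libraries with colours limited to -2 and 2, in columns BXD 1 to 3, model 1 to 3 and control 1 to 3. The model columns are mostly on the high side for the adenine nucleotide and carboxylate carriers, and Slc25a27 is high in the 3 control columns.

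**Figure D4:**
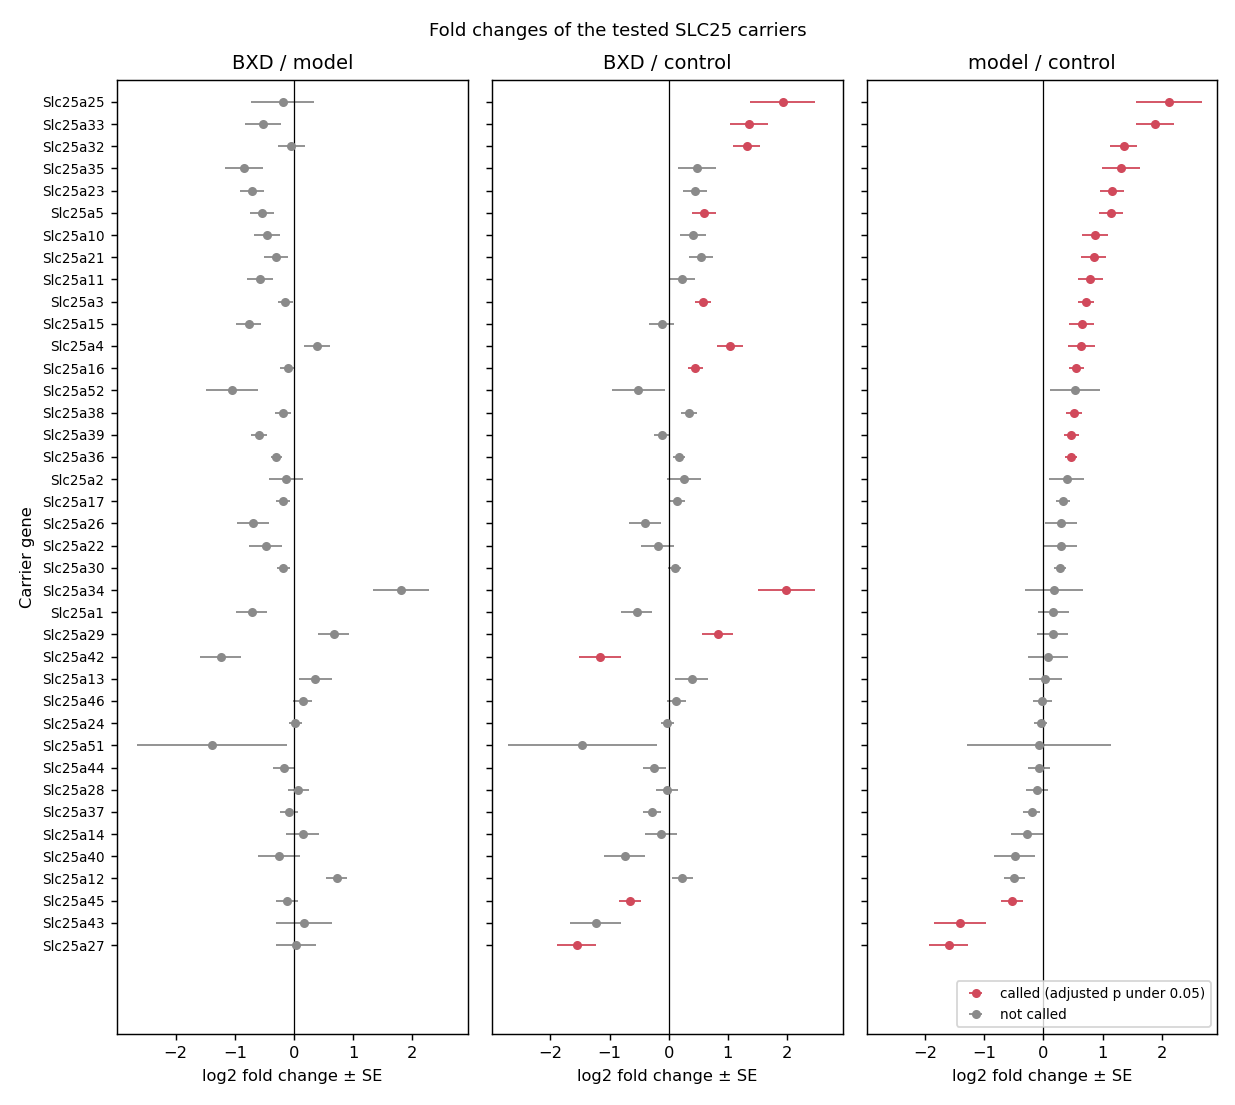
Log2 fold change of 39 of the 40 tested carriers with its SE, in panels for BXD over model, BXD over control and model over control, with called genes in red. The panel of BXD over model has 0 called genes, and that of model over control has 16 rises and 3 falls.

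Among the adenine nucleotide carriers, 4 of 5 tested members rose in model libraries, beside 21.6% of all genes, with a median log2 fold change of 1.14. Slc25a25 is a calcium-regulated exchanger of ATP-Mg for phosphate that adjusts the adenine nucleotide pool of the matrix (gene ID 246771, Rnor_6.0 chr3:11442396-11476186). It was measured at 230, 79.6 and 40.7 CPM in BXD replicates 1 to 3, at 125, 174 and 101 CPM in model replicates, and at 38.9, 27.1 and 25.7 CPM in control replicates. Each BXD and model library lay above each control library, although BXD replicate 3 was only just above control replicate 1. The gene rose 4.36-fold in model over control (log2 fold change 2.12, SE 0.55, adjusted p = 0.0147). That call was lost without control replicate 2 (log2 fold change 2.03, adjusted p = 0.0534), control replicate 3 (1.99, 0.0544) or model replicate 2 (1.89, 0.0524). Slc25a23, a carrier of the same calcium-regulated type (gene ID 301113, chr9:9987988-10003599), stood at 39.3, 27.2 and 36.4 CPM in BXD, 58.2, 66.6 and 43.2 CPM in model and 30.7, 22.2 and 22.5 CPM in control libraries. The model libraries lay above all others, and the rise over control was 2.23-fold (log2 fold change 1.16, SE 0.21, adjusted p = 0.00306). The third carrier of the type, Slc25a24, had nearly equal means of 46.8 ± 2.81 CPM in BXD, 46.1 ± 5.69 CPM in model and 47.6 ± 1.45 CPM in control libraries (SD, n = 3 each), and did not pass the test.

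Slc25a5, the translocase found in most dividing tissues (gene ID 25176, chrX:123404570-123407643), was at 316, 389 and 443 CPM in BXD, 453, 735 and 479 CPM in model and 275, 255 and 226 CPM in control libraries. The 3 groups did not overlap, with model highest and control lowest. It rose 2.21-fold in model over control (log2 fold change 1.14, SE 0.20, adjusted p = 0.00293), and the call was kept under every alternative tried. Slc25a4, the muscle type translocase (gene ID 85333, chr16:49266903-49270698), was at 510, 271 and 485 CPM in BXD, 323, 372 and 267 CPM in model and 206, 202 and 208 CPM in control libraries. The control libraries were close together and below all others, and the 2 highest values were in BXD replicates 1 and 3, the same that carried striated muscle message. Its rise in model over control was 1.56-fold (log2 fold change 0.64, SE 0.22, adjusted p = 0.0434), and it was lost on leaving out any of the 3 control libraries (adjusted p 0.0985, 0.114 and 0.107 for replicates 1 to 3), model replicate 1 (0.0849) or model replicate 2 (0.131). In model over control Slc25a4 also lost its call with upper quartile scaling (adjusted p = 0.0833) and with library size alone (0.172).

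Promoter windows from RefSeq are shown for the 2 members with the largest rises and the member with the largest fall in model over control. Each runs from 250 bases before the annotated start to 50 bases after it, on the GRCr8 build, 5′ to 3′ on the strand of the gene. Windows were found for 39 of the 47 members, 41 in all. Capitals mark the cAMP response element TGACGTCA, a motif bound by CREB that reads the same on both strands.
Slc25a25 (chr3:36116532-36116831, minus strand): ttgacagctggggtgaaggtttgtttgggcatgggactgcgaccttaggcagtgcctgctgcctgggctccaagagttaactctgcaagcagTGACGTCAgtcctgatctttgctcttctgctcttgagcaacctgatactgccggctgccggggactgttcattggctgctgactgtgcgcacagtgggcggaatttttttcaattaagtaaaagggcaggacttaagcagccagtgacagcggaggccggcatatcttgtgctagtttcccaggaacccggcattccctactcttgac
Slc25a33 (chr5:165502924-165503223, minus strand): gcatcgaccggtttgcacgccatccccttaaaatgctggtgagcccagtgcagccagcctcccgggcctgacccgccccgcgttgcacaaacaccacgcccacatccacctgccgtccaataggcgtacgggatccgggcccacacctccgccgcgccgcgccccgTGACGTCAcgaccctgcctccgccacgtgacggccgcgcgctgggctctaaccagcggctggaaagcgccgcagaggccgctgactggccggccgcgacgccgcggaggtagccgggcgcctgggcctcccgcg
Slc25a27 (chr9:24804058-24804357, plus strand): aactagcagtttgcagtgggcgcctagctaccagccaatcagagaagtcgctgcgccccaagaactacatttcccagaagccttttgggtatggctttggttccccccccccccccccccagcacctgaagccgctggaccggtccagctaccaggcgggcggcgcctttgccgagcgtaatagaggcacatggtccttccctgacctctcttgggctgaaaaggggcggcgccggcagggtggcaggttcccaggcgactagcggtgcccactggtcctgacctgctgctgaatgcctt
The motif begins 158 bases before the start in Slc25a25 and 84 bases before it in Slc25a33. It was found in 2 of the 41 member windows (4.88%) and in 1.83% of all 33469 windows. The NRF1 motif was found in 0 member windows and 0.852% of all, and the estrogen-related receptor motif TNAAGGTCA in 0 member windows and 1.20% of all, both searched on both strands. The Slc25a27 window held none of these motifs. A match is a match of letters only, and a link of the motifs to the fold changes was not tested.

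The phosphate carrier rose, and the uncoupling-type carrier Slc25a27 fell. Slc25a3 (gene ID 245959, chr7:31816601-31824064) was at 476, 428 and 575 CPM in BXD, 506, 622 and 506 CPM in model and 334, 329 and 324 CPM in control libraries. The groups of BXD and model overlapped, and each of their libraries lay above the 3 control libraries. The rise in model over control was 1.66-fold (log2 fold change 0.73, SE 0.13, adjusted p = 0.00348), and no alternative ended the call. Slc25a27, also called UCP4 and known mainly from brain (gene ID 85262, chr9:19880468-19907509), was at 3.84, 2.2 and 1.89 CPM in BXD, 3.59, 1.97 and 2.13 CPM in model and 7.31, 7.34 and 8.69 CPM in control libraries. The control libraries stood above all others, and replicate 1 of BXD and of model stood above the other libraries of its own group. It fell 3.03-fold in model over control (log2 fold change -1.60, SE 0.33, adjusted p = 0.00561), and this call too was kept under every alternative. Slc25a30 and Slc25a14, relatives of Slc25a27, did not pass the test in model over control (adjusted p 0.058 and 0.438).

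Of the 4 carboxylate carriers, 3 rose in model libraries, beside 21.6% of all genes, and the citrate carrier did not pass the test. The median log2 fold change of the 4 was 0.82. The dicarboxylate carrier Slc25a10, which exchanges malate and succinate for phosphate, averaged 71.9 ± 3.31 CPM in BXD, 98.9 ± 24.5 CPM in model and 54.0 ± 16 CPM in control libraries (SD, n = 3 each), a log2 fold change of 0.87 in model over control (SE 0.22, adjusted p = 0.0138). Slc25a11, the oxoglutarate carrier of the malate-aspartate shuttle, averaged 33.1 ± 5.66, 49.3 ± 16 and 28.4 ± 1.75 CPM in the same groups (log2 fold change 0.79, adjusted p = 0.0179). Both calls were lost without control replicate 2 (adjusted p 0.055 for Slc25a10 and 0.0545 for Slc25a11) or control replicate 3 (0.0555 and 0.0669). Slc25a21, the oxodicarboxylate carrier of lysine and tryptophan breakdown, averaged 4.45 ± 0.391, 5.48 ± 0.803 and 3.04 ± 0.176 CPM (log2 fold change 0.85, adjusted p = 0.0107), and its annotated span overlaps Pax9 by 70 bases. The call of Slc25a21 was lost under 3 of the 19 alternatives, none of them with a single library left out. The citrate carrier Slc25a1, which exports citrate for fatty acid synthesis, averaged 85.6 ± 5.39 CPM in BXD, 140 ± 28.7 CPM in model and 125 ± 51.9 CPM in control libraries, and its log2 fold change of 0.17 in model over control had an adjusted p of 0.619.

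Among 8 tested amino acid carriers, 2 rose in model libraries, a share near the 21.6% of all genes that were called higher. Slc25a15, which imports ornithine for the urea cycle, was at 24.6, 20.4 and 23.7 CPM in BXD, 30.8, 53.5 and 32.6 CPM in model and 24.7, 28.1 and 21.9 CPM in control libraries. The model libraries lay above all others and model replicate 2 furthest, and the annotated span overlaps Tpte2 on the opposite strand by 1665 bases. It rose 1.56-fold (SE of the log2 fold change 0.21, adjusted p = 0.0358). The call was lost without control replicate 1 (adjusted p = 0.0925), control replicate 2 (0.0576), control replicate 3 (0.126) or model replicate 2 (0.0933, with a log2 fold change of 0.35). Slc25a38, which supplies glycine for heme synthesis, averaged 21.2 ± 2.26 CPM in BXD, 24.1 ± 0.851 CPM in model and 16.8 ± 2.21 CPM in control libraries (log2 fold change 0.52 in model over control, adjusted p = 0.0144), a call lost without control replicate 2 (0.0686) or control replicate 3 (0.0584). Slc25a12, the calcium-stimulated aspartate-glutamate exchanger of the malate-aspartate shuttle, was at 44.9, 30.9 and 33.9 CPM in BXD, 25.4, 17.8 and 23.0 CPM in model and 29.9, 28.9 and 34.7 CPM in control libraries. The model libraries lay below all others, and the log2 fold change of -0.50 in model over control just missed the threshold (SE 0.18, adjusted p = 0.0505). Without the 3 libraries that carried striated muscle message it passed (log2 fold change -0.37, adjusted p = 0.0489), and the authors' deposited table lists -0.48 with a q-value of 0.0310. Its relative Slc25a13 averaged 8.40, 6.56 and 6.43 CPM in BXD, model and control libraries, and its annotated span contains or overlaps other genes, Col1a2 among them. Slc25a2, Slc25a22, Slc25a29 and Slc25a44 did not pass the test in model over control.

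Cofactor and nucleotide carriers gave 4 rises of 10 members in model libraries, beside 21.6% of all genes, with a median log2 fold change of 0.50. Slc25a33, which brings pyrimidine nucleotides into the matrix for mitochondrial DNA and RNA synthesis (gene ID 691431, chr5:166701463-166726794), was at 47.8, 34.5 and 28.8 CPM in BXD, 37.3, 76.3 and 46.4 CPM in model and 18.2, 15.1 and 9.95 CPM in control libraries. BXD and model libraries overlapped and all lay above control. It rose 3.70-fold in model over control (log2 fold change 1.89, SE 0.32, adjusted p = 0.00243). Slc25a32, a carrier of folate and flavin adenine dinucleotide (gene ID 315023, chr7:77983885-78005058), was at 43.5, 73.0 and 89.1 CPM in BXD, 68.9, 81.2 and 61.7 CPM in model and 28.9, 25.6 and 28.0 CPM in control libraries. Its control libraries were close together and below all others, and the rise was 2.56-fold (log2 fold change 1.36, SE 0.23, adjusted p = 0.00251). Both calls were kept under every alternative tried. The other 2 rises were smaller. Slc25a16, linked to coenzyme A transport, averaged 47.1 ± 0.466 CPM in BXD, 50.7 ± 8.40 CPM in model and 34.5 ± 2.91 CPM in control libraries (log2 fold change 0.55 in model over control, adjusted p = 0.00888). Slc25a36, a pyrimidine nucleotide carrier like Slc25a33, averaged 200 ± 17.5 CPM in BXD, 245 ± 10.7 CPM in model and 177 ± 10.7 CPM in control libraries (log2 fold change 0.47, adjusted p = 0.00623). The calls of Slc25a16 and Slc25a36 were each lost under 4 of the 19 alternatives, none of them with a single library left out. The mitochondrial NAD carrier Slc25a51 was the most variable tested member, at 0.25, 5.34 and 24.6 CPM in BXD, 68.1, 3.76 and 7.97 CPM in model and 16, 44.3 and 23.1 CPM in control libraries, and it passed no test. In human, Slc25a51 and Slc25a52 are close copies, and reads of such copies may be split between them.

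Of the 4 iron and glutathione carriers, 1 rose in model libraries, and of the 5 tested carriers of the outer membrane or of unassigned substrate, 1 rose and 2 fell. Over all genes tested, 21.6% were called higher and 20.6% lower, so the shares of rises in these groups were near that of all genes. Slc25a39, needed for glutathione import into mitochondria, was at 99.5, 101 and 119 CPM in BXD, 152, 183 and 145 CPM in model and 129, 102 and 114 CPM in control libraries, and the model libraries lay above all others. Its rise in model over control was 1.39-fold (log2 fold change 0.47, SE 0.13, adjusted p = 0.0201). The call was lost under 8 of the 19 alternatives, among them without control replicate 2 (0.0854), control replicate 3 (0.0666) or model replicate 2 (0.061). The mitoferrins Slc25a37 and Slc25a28, which import iron, were at similar means in all groups: 23.1, 24.4 and 28.1 CPM for Slc25a37 and 49.2, 46.6 and 50.2 CPM for Slc25a28 in BXD, model and control libraries. Neither passed the test in any comparison. Slc25a35, a carrier of unassigned substrate (gene ID 497933, chr10:55554911-55559083), was at 16.7, 40.2 and 39.1 CPM in BXD, 42.7, 76.0 and 53.0 CPM in model and 26.5, 21.6 and 21.0 CPM in control libraries. The model libraries lay above all others, and the rise over control was 2.48-fold (log2 fold change 1.31, SE 0.33, adjusted p = 0.0118), kept under every alternative. Slc25a35 overlaps Rangrf on the opposite strand by 35 bases.

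Slc25a43 and Slc25a45, both of less settled function, fell in model libraries. Slc25a43 (gene ID 298318, chrX:123349836-123384798) was at 0.417, 0.628 and 0.755 CPM in BXD, 0.788, 0.358 and 0.456 CPM in model and 0.923, 1.69 and 1.68 CPM in control libraries. The control libraries lay above all others at a level of few counts. The fall was 2.66-fold in model over control (log2 fold change -1.41, SE 0.44, adjusted p = 0.0297), and it was lost without control replicate 2 (0.0921), control replicate 3 (0.0945), model replicate 2 (0.106) or model replicate 3 (0.0944), and with DESeq2 (0.0501). Slc25a45 (gene ID 689625, chr1:221236817-221244588) averaged 10.6 ± 2.28 CPM in BXD, 11.6 ± 0.479 CPM in model and 16.8 ± 2.37 CPM in control libraries (SD, n = 3 each). Its log2 fold change in model over control was -0.53 (SE 0.18, adjusted p = 0.0413). The adjusted p was 0.0946 and 0.127 without control replicates 2 and 3, 0.0800, 0.107 and 0.0863 without model replicates 1 to 3, and 0.0542 without BXD replicate 2.

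**Figure D5:**
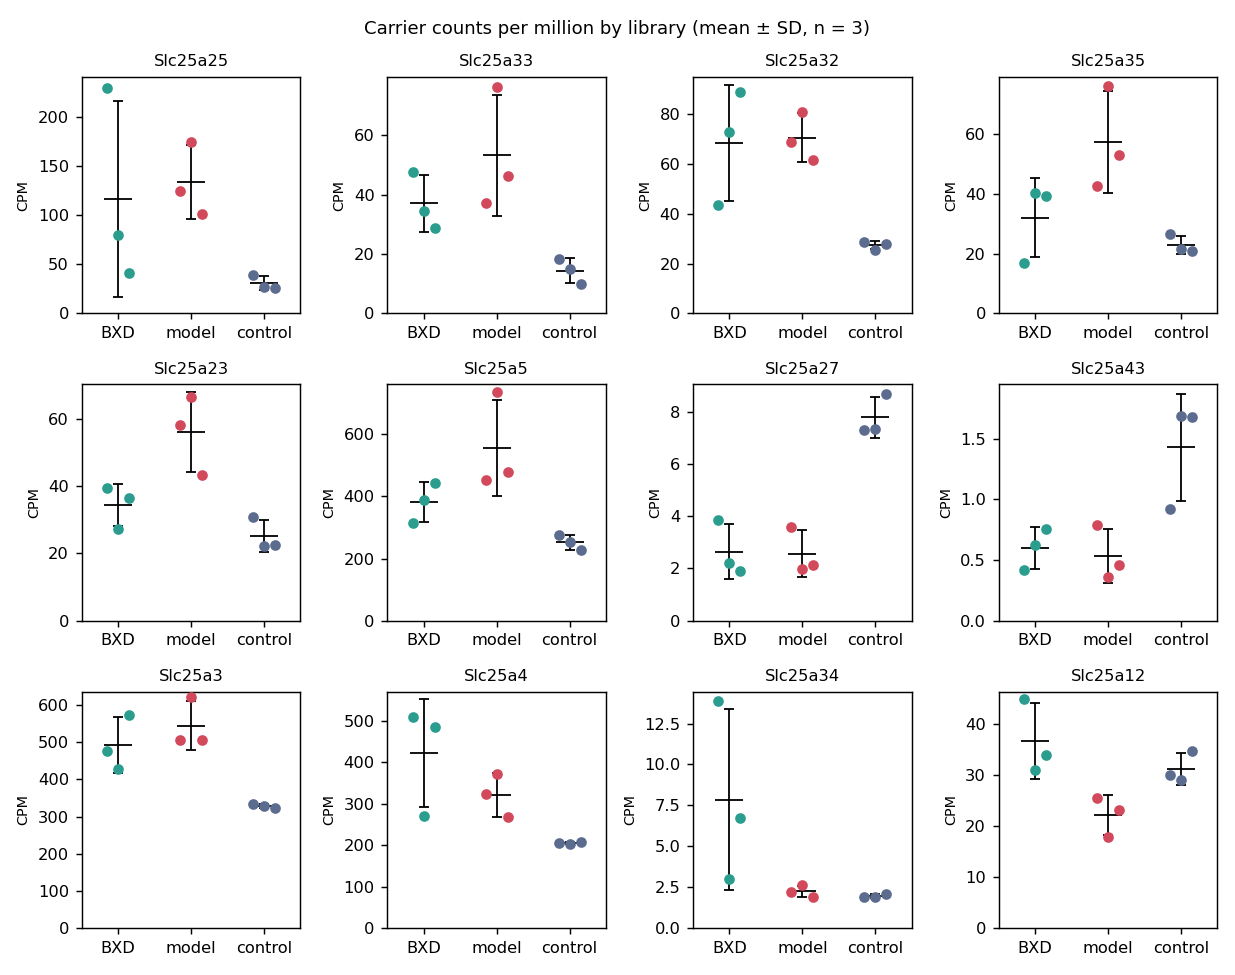
Level of 12 carriers in each library in CPM, as points with the group mean and SD (n = 3), with BXD, model and control from left to right. Control points form tight clusters below the model points for Slc25a32, Slc25a3 and Slc25a5, and above them for Slc25a27.

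Between BXD and model, 0 of 40 members passed the edgeR test in either direction, beside 0.0546% of all genes tested called higher and 0.00683% called lower, 0.0615% together, and the lowest adjusted p was 0.099. At an unadjusted p under 0.05, 3 members were higher and 12 lower in BXD, beside 11.0% and 9.85% of all genes. DESeq2 called 2 members higher, Slc25a34 and Slc25a12, and 4 lower, Slc25a39, Slc25a15, Slc25a23 and Slc25a42, where it called 4.54% and 3.3% of all genes. The authors' deposited table lists 1 member higher, Slc25a34 (log2 fold change 1.82, q-value 0.0418), and 3 lower, Slc25a1 (-0.71, 0.0130), Slc25a39 (-0.59, 0.0207) and Slc25a42 (-1.24, 0.0284). The median log2 fold change of the 40 was -0.18, against -0.01 over all genes, with 11 positive and 29 negative estimates.

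The 4 members with the smallest unadjusted p between BXD and model were Slc25a39, Slc25a12, Slc25a34 and Slc25a15. Slc25a39 had a log2 fold change of -0.59 (SE 0.13, unadjusted p = 0.00167, adjusted p = 0.099), with each BXD library below each model library, as given above. Slc25a12 had a log2 fold change of 0.73 (SE 0.18, unadjusted p = 0.00276, adjusted p = 0.109). That log2 fold change was 0.36 without the 3 libraries that carried striated muscle message. This fit kept BXD replicate 2 as the only BXD library. Slc25a34, an orphan carrier, was at 13.9, 2.98 and 6.72 CPM in BXD, 2.19, 2.60 and 1.90 CPM in model and 1.92, 1.88 and 2.10 CPM in control libraries. BXD replicates 1 and 3, the libraries with striated muscle message, were high, and BXD replicate 2 was close to the model libraries. Its log2 fold change was 1.81 (SE 0.48, unadjusted p = 0.00414, adjusted p = 0.118), 2.21 without BXD replicate 2 (adjusted p = 0.0372), 1.12 without BXD replicate 1 and 0.55 without the 3 libraries that carried striated muscle message. Slc25a15 had a log2 fold change of -0.77 (SE 0.21, unadjusted p = 0.00556, adjusted p = 0.125), with BXD libraries below model libraries. Slc25a42, the coenzyme A carrier, averaged 34.0 ± 5.27 CPM in BXD, 80.4 ± 44.0 CPM in model and 76.1 ± 19.0 CPM in control libraries. Model replicate 2 alone reached 130 CPM, and the annotated span of the gene overlaps Tmem161a on the opposite strand by 10511 bases. Slc25a35 and Slc25a5 had log2 fold changes of -0.84 and -0.54 (adjusted p 0.188 and 0.178).

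Against control, 9 of 40 members rose in BXD libraries, which is 22.5% beside 16.1% of all genes, and 3 fell, which is 7.5% beside 14.3%. Together they were 30.0% of the members, beside 30.3% of all genes. The rises were in Slc25a3, Slc25a4, Slc25a5, Slc25a16, Slc25a25, Slc25a29, Slc25a32, Slc25a33 and Slc25a34, and the falls in Slc25a27, Slc25a42 and Slc25a45. This comparison shares its control libraries with that of model and control, and its BXD libraries with that of BXD and model. Of the 4 carboxylate carriers, 0 passed the edgeR test. The number of rises was 4 without control replicate 2 and 5 without control replicate 3, when 9.71% and 10.2% of all genes were called higher. The number of falls was 1 without control replicate 2 or BXD replicate 2, when 8.7% and 9.04% of all genes were called lower.

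Slc25a32 rose 2.49-fold (log2 fold change 1.32, SE 0.23, adjusted p = 0.00397), Slc25a33 2.57-fold (1.36, SE 0.32, 0.0127), and Slc25a27 fell 2.95-fold (-1.56, SE 0.33, 0.00848) in BXD over control, and these 3 calls were kept under every alternative. Slc25a3 rose 1.5-fold (adjusted p = 0.0119), a call lost under 5 of the 19 alternatives. Leaving out the 3 libraries that carried striated muscle message kept BXD replicate 2 as the only BXD library. Effect sizes alone are given from that fit. The log2 fold change of Slc25a3 was then 0.38. Slc25a4 rose 2.05-fold (log2 fold change 1.04, SE 0.22, adjusted p = 0.0091), and its log2 fold change was 0.41 without those 3 libraries. Slc25a34 rose 3.97-fold (1.99, SE 0.48, 0.0142), with a log2 fold change of 0.60 without those 3 libraries. It was 1.30 (adjusted p = 0.0278) without BXD replicate 1 and 1.96 (0.0519) without control replicate 2. In both genes the high values were in the BXD libraries with striated muscle message. The 10 striated muscle markers were all called higher in BXD than in control. Their sums were 7503 and 4067 CPM in BXD replicates 1 and 3, and 65.2 CPM in BXD replicate 2. The part of this message in the rises of Slc25a4 and Slc25a34 was not tested.

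Other calls of BXD against control were lost on leaving out single libraries. Slc25a25 rose 3.81-fold (log2 fold change 1.93, SE 0.55, adjusted p = 0.0274), with a log2 fold change of 0.98 without BXD replicate 1 (adjusted p = 0.0547), and adjusted p 0.0581, 0.0862 and 0.0868 without control replicates 1 to 3. Slc25a5 rose 1.52-fold (adjusted p = 0.0487), lost without control replicate 1 (0.0829), 2 (0.113) or 3 (0.144), BXD replicate 2 (0.119) or 3 (0.142), or model replicate 3 (0.0564). Slc25a16 rose by 0.45 on the log2 scale (adjusted p = 0.0271), lost without control replicates 2 (0.0914) or 3 (0.0906) or BXD replicates 2 (0.078) or 3 (0.0577). Slc25a29, a carrier of basic amino acids, averaged 11.7 ± 1.71 CPM in BXD, 7.35 ± 2.67 CPM in model and 6.61 ± 0.780 CPM in control libraries. It rose by 0.83 in BXD over control (SE 0.26, adjusted p = 0.0369), with adjusted p 0.0882, 0.0691 and 0.0582 without BXD replicates 1 to 3 and 0.0815, 0.118 and 0.0771 without control replicates 1 to 3. Slc25a42 fell 2.24-fold (log2 fold change -1.16, SE 0.35, adjusted p = 0.0336), lost without BXD replicate 2 (0.102) or 3 (0.0888) or control replicate 1 (0.0681) or 2 (0.113). Slc25a45 fell by 0.66 (adjusted p = 0.0247), lost without BXD replicate 2 (0.0664), control replicate 2 (0.0717) or control replicate 3 (0.0886). Without the 3 libraries that carried striated muscle message, BXD replicate 2 was the only BXD library. The log2 fold change in BXD over control was then 0.72 for Slc25a29 and -0.66 for Slc25a45.

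Genes that act with the carriers rose in part between model and control, where 21.6% of all genes were called higher. The pyruvate carrier subunits Mpc1 and Mpc2 both rose in model libraries, by 1.07 and 0.87 on the log2 scale (adjusted p 0.0102 and 0.0198), as did the outer membrane pores Vdac1 (0.69, 0.0298) and Vdac2 (0.77, 0.00583), whereas Vdac3 did not pass. Of 12 genes of the import machinery in the table, 8 rose, among them Tomm20, at 215 ± 5.32 CPM in BXD, 242 ± 46.5 CPM in model and 117 ± 2.39 CPM in control libraries (log2 fold change 1.05 in model over control), and Tomm70 (0.99). Of 4 enzymes of the malate-aspartate shuttle, 3 rose, Got2 (0.57), Mdh1 (1.22) and Mdh2 (1.23). Of 7 genes of cytosolic citrate use, such as Acly and Fasn, 0 passed. Of 9 regulators of mitochondrial biogenesis, 5 rose, with the coactivator Ppargc1a at 88.2 ± 14.5 CPM in BXD, 192 ± 88.2 CPM in model and 18.3 ± 7.75 CPM in control libraries (log2 fold change 3.39, SE 0.38, adjusted p = 0.000523). Ucp1, the uncoupling protein of brown fat, averaged 875 ± 297 CPM in BXD, 3411 ± 1953 CPM in model and 716 ± 328 CPM in control libraries (log2 fold change 2.25 in model over control, adjusted p = 0.00745). Ucp2 and Ucp3 did not pass the test in model over control. Ucp1 and Ppargc1a are also among the 5 brown adipocyte markers given above. In BXD over control, 2 of 12 genes of the import machinery (Tomm20, 0.88, and Tomm70, 0.80), 1 of 4 shuttle enzymes (Mdh1, 0.84) and 2 of 9 regulators, Ppargc1a (2.27) and Pprc1 (0.90), rose, beside 16.1% of all genes called higher, and Ppara fell by 1.58. Between BXD and model 0 genes of these lists passed the edgeR test.

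Members did not vary alike among the libraries of a group. The median coefficient of variation over the 40 members was 19.7% in BXD, 18.4% in model and 11.9% in control libraries. Model replicate 2 was the highest of the 3 model libraries in 24 of 40 members (60.0%), beside 39.2% of all tested genes, and model replicate 3 in 1 (2.5%), beside 28.0%. Model replicate 2 was also the model library with the largest sums of adipocyte, brown adipocyte and striated muscle markers, whose part in those levels was not tested. BXD replicate 1 was the highest of its group in 20 members (50.0%, beside 39.8%), and control replicate 1 in 20 (50.0%, beside 34.9%).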

How the data were processed

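The 9 libraries were made from poly(A) RNA of rat gastric lymphatic vessel and read by Illumina sequencing, according to the labels. HISAT2 2.2.4, Bowtie2 2.2.5 and, as genome build, Rnor_6.0 appear in the submitters' processing notes. The counting tool and strand setting are not given in the sources used here, so overlapping genes, antisense genes and near-identical copies cannot be told apart. The authors deposited estimated counts and FPKM per gene, per the file headers, for 18964 genes. Of the deposited counts, 88.8% were whole within 1e-09. A second table of the authors gives log2 fold changes with q-values, per the file headers, and is named wherever it is used. A further 54 columns of per-sample values were not used. An omeprazole group named in the protocol was not analysed here.

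Libraries were grouped by their titles. Estimated counts were rounded, filtered with filterByExpr (14643 genes left), scaled by trimmed means of M-values (factors 0.873 to 1.15) and fitted with edgeR 4.0.16 in R 4.3.3, a quasi-likelihood model with robust dispersion over all 9 libraries, with group as the only term leaving 6 residual degrees of freedom and a biological coefficient of variation of 23.3%. P-values were adjusted by Benjamini-Hochberg over all tested genes. CPM values use the scaled library sizes. Replicates differed beyond sampling noise (chi-square per degree of freedom 13.5 to 49.3). The fit was also run on simulated counts with few changed genes and no differences in tissue content. No result above rests on that run. Alternatives were other scalings, DESeq2 1.42.0, no filter, limma 3.58.1 on log2(FPKM + 0.1) and log2(FPKM + 1), a replicate block, only the groups compared, each library left out, and, chosen after seeing the data, 3 libraries with striated muscle genes left out. That last fit kept the control libraries, model replicates 1 and 3, and BXD replicate 2 as the only BXD library.

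Members, roles, pathway and marker lists were chosen with earlier results of these data known. Values in every library are given for members called between model and control at a log2 fold change of at least 1 in size, the 3 with the highest mean FPKM and the 4 with the smallest p between BXD and model, with Slc25a51 added after its values were seen. Gene coordinates (Rnor_6.0) were read from the deposited table. Promoter windows are from RefSeq on GRCr8. Some items, 1 tested member among them, are counted but not reported here by name or in the plots.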

Additional observations from a re-analysis of the deposited data

How the results depend on the processing

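Of the 19 members called between model and control, 7 (Slc25a3, Slc25a5, Slc25a23, Slc25a27, Slc25a32, Slc25a33 and Slc25a35) kept their call under all 19 alternatives, and of the 12 called between BXD and control 3 did (Slc25a27, Slc25a32 and Slc25a33). The losses given above for single libraries are a part of all losses. In model over control the call was lost under 12 alternatives for Slc25a15, 11 for Slc25a4, 8 for Slc25a39, 7 for Slc25a43 and Slc25a45, and 6 for Slc25a11 and Slc25a38. In BXD over control it was lost under 13 for Slc25a5, 12 for Slc25a29, 10 for Slc25a16 and 9 for Slc25a25. No called member changed sign under any alternative run. Against the 16 rises and 3 falls of model over control, DESeq2 gave 19 and 3, library size alone gave 9 rises and 5 falls, and limma gave 8 rises on log2(FPKM + 0.1), 8 on log2(FPKM + 1) and 9 on log2(FPKM + 0.1) with no filter, with 4 falls in each case. Of all genes, DESeq2 called 22.4% higher and 19.9% lower, and library size alone 11.1% and 33.5%. The limma fits, in the same order, called 10.1%, 9.84% and 8.24% of all genes higher and 29.7%, 30.0% and 24.7% lower. Against the 9 rises and 3 falls of BXD over control, library size alone gave 5 and 6, and the same limma fits gave 4 rises and 5 falls in each case. Of all genes, library size alone called 9.36% higher and 24.6% lower. The limma fits called 7.79%, 7.59% and 6.27% of all genes higher and 21.5%, 22.5% and 17.4% lower. These scalings put the median of all genes below 0, by up to -0.28 in model over control and -0.23 in BXD over control. Between BXD and model, DESeq2 called 2 higher and 4 lower, beside 4.54% and 3.3% of all genes, where edgeR called 0 and 0. Leaving out each library in turn gave 9 to 18 rises and 1 to 4 falls for model over control, 0 to 1 rises and 0 to 0 falls for BXD over model, and 4 to 9 rises and 1 to 4 falls for BXD over control. Over all genes, these fits called 14.4% to 23.3% higher and 14.1% to 23.0% lower for model over control. For BXD over control they called 9.71% to 17.4% higher and 8.68% to 15.1% lower. For BXD over model they called at most 0.907% higher and 0.128% lower. With 3 libraries a group and 12313813 to 13455705 counts in each, members near 1 CPM, such as Slc25a43 and Slc25a52, rest on few counts.

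Replicate numbers are shared between groups, but the labels do not say that they pair rats. The 9 correlations between same-numbered libraries of 2 groups ranged from -0.43 to 0.08, and in 1 of 18 cases did a library correlate best with its own number, so the numbers were not taken to pair samples. A replicate block gave 14 rises and 3 falls for model over control, 0 and 0 for BXD over model, and 7 and 3 for BXD over control. With that block, 18.9% of all genes were called higher and 17.7% lower for model over control, and 13.2% and 11.8% for BXD over control.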
